A study of Mus musculus with 12 samples.

Results

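The naive to epiblast-like cell (EpiLC) transition of Pcbp1-knockout mouse embryonic stem cells was followed in 6 of the 12 RNA-seq libraries of the series. These were the 3 EpiLC and the 3 naive libraries labelled as PCBP1 knockout, paired by replicate number, and every gene of the deposited count table was considered. All cells came from E14 Tg2a, an established mouse embryonic stem cell line obtained from Bay Genomics. The labels describe 3 independent clones per genotype, the controls being clones named Scr and also WT; they do not give the position of the edit in the knockout clones. Naive cells were kept in serum-free N2B27 medium with LIF, 1 uM PD0325901 (an inhibitor of the kinase MEK) and 3 uM CHIR99021 (an inhibitor of the kinase GSK3), for 3 adaptation passages on plastic coated with poly-L-ornithine. EpiLCs were the same cells after 48 h on fibronectin in N2B27 with 12 ng/ml bFGF, 20 ng/ml activin A and 1% knockout serum replacement (KOSR), a medium for which neither LIF nor the inhibitors are listed. Polyadenylated RNA was sequenced with a stranded library kit. The 6 control libraries, treated in the same way, were used to ask where the knockout transition differed.

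Naive stem cells resemble the epiblast of the preimplantation embryo. LIF acting through STAT3, together with inhibition of MEK and of GSK3, holds up a network of naive transcription factors in them, and FGF and activin signals take that network down and bring up the formative genes of the early postimplantation epiblast, among them the de novo DNA methyltransferases. PCBP1 is a KH-domain protein that binds C-rich RNA and single-stranded DNA, acts in splicing, translation and RNA stability, and delivers iron to client proteins.

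The 12 libraries held 27146744 to 42204511 counts assigned to genes, and the 6 knockout libraries 32274451 to 42204511. In all, 18134 of 55487 annotated genes had enough counts to be tested. Values below are counts-per-million levels (CPM) after TMM scaling, given for clones 1, 2 and 3 in that order. A log2 change is the EpiLC minus the naive level within clones (or the stated difference between genotypes), with n = 3 clones per genotype. It comes from edgeR's quasi-likelihood test over all 12 libraries with the clone as a block. Its standard error is the size of the change divided by the square root of the test's F statistic. This error is unsteady where the change is close to none, as for Hnf4a below. A gene was called to rise or fall at a Benjamini-Hochberg adjusted p under 0.05 over all tested genes. The EpiLC library of control clone 2 stood apart: its summed CPM over the 16 naive factors described below was 1061, against 357 and 374 in control clones 1 and 3, and its sum over the 20 formative genes was 3928, against 6790.3 and 5914. The number of differences from the control transition and the leading ones are also given without that clone. Mitochondrially encoded genes took 1.10% of counts in naive and 0.666% in EpiLC cells of knockout clone 2, the lowest shares of the knockout libraries, where the other clones had 1.70% to 2.00% and 1.26% to 1.30%.

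The targeted gene, Pcbp1 (ENSMUSG00000051695.6, chr6:86524492-86526321, a gene without introns on the minus strand), was still counted in every knockout library. It stood at 295, 302 and 303 CPM in naive and 250.3, 302 and 265 CPM in EpiLC knockout cells, against 475, 418 and 474 CPM in naive and 692, 512 and 592 CPM in EpiLC control cells. Every knockout library was below every control library, and the knockout level did not pass the test between the states (log2 change -0.15 ± 0.08, adjusted p = 0.144). RNA from an edited gene can remain, so this level does not measure the protein. Among the relatives of Pcbp1, Pcbp4 rose from 44.9, 56.7 and 44.1 to 186, 203 and 204 CPM in the knockout clones (log2 change 2.04 ± 0.11, adjusted p = 1.98e-06), with the 2 states well apart in each clone. Pcbp3 rose by 1.35 and Hnrnpk by 0.23 on the log2 scale, and Pcbp2 did not pass the test (0.05 ± 0.07, adjusted p = 0.561). In the control clones 3 of these 5 genes also rose, by at most 1.92. None of the 5 was called for a difference between the genotypes' transitions.

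Most measured genes changed in the knockout transition. Of the 18134 tested genes, 11043 were called between EpiLC and naive knockout cells (60.9%), 5441 higher in EpiLCs (30%) and 5602 lower (30.9%). A change of at least 2-fold as well was found for 6274 genes (34.6%), and of these 1286 rose and 715 fell by at least 8-fold. The direction was the same in each of the 3 clones for 10994 of the 11043 called genes, or 99.6%. The calls were made on these same clones, so such agreement is largely built into them. Across genes, the EpiLC minus naive differences correlated between clones with a Pearson r of 0.948 for clones 1 and 2, 0.931 for clones 1 and 3 and 0.906 for clones 2 and 3, where genes are not independent points. For 11651 genes (64.2%) the 3 naive and the 3 EpiLC values did not overlap. The median change over all tested genes was -0.03 on the log2 scale, the level against which the medians of the gene groups below are set. Their called shares are to be read against the 60.9%. The lists and their members were chosen with earlier results of these data known, so the shares describe these genes and do not test the groups. Where leaving out 1 clone moved a group's median by over 1.5 times or turned its sign, the median without that clone is given beside it.

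Naive factors fell as a group in the knockout clones: 15 of 16 were called lower in EpiLCs, none higher, with a median log2 change of -3.92. Tfcp2l1 (chr1:118627945-118685168), a transcription factor that acts downstream of LIF, was at 1530.4, 1608 and 1758 CPM in naive and 28.5, 30.8 and 38.3 CPM in EpiLC knockout cells (log2 change -5.66 ± 0.27, adjusted p = 9.73e-07). It fell furthest of the 16, and no EpiLC value came near a naive one. Klf4, a Krüppel-like factor of the naive network, went from 320.2, 339.9 and 300.5 to 6.43, 6.32 and 12.8 CPM (-5.30 ± 0.39, adjusted p = 8.52e-06). Clone 3 kept the highest EpiLC level, still far under each naive value. In EpiLCs clone 3 was also highest for Esrrb, an orphan nuclear receptor that binds beside the core factors, at 809.9, 914 and 837 CPM in naive and 31.6, 42.5 and 74.1 CPM in EpiLC cells (-4.20 ± 0.41, adjusted p = 3.84e-05). Nanog, the homeobox factor whose loss marks exit from the naive state, fell from 749.9, 813 and 664 to 88.4, 70.2 and 70.2 CPM (-3.29 ± 0.25, adjusted p = 9.46e-06), with the 3 EpiLC values close together. Zfp42 (Rex1), the common reporter of the naive state, fell from 328, 351 and 359.8 to 43.6, 54.7 and 82.5 CPM (-2.57 ± 0.38, adjusted p = 0.000441), again least in clone 3. Dppa3 (Stella), a maternal factor that protects methylated DNA, fell by 3.80 on the log2 scale, and its naive level differed most between clones, at 64.9, 14.8 and 119 CPM. The other called members lay between -5.24 ± 0.51 for Prdm14, a repressor that keeps DNA methylation low, and -2.0 ± 0.13 for Pecam1. Gbx2, a homeobox factor that LIF induces, was the 1 member not called, at 12.4, 8.19 and 10.5 CPM in naive and 17.2, 32.2 and 14.6 CPM in EpiLC cells (0.97 ± 0.42, adjusted p = 0.0753).

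**Figure D1:**
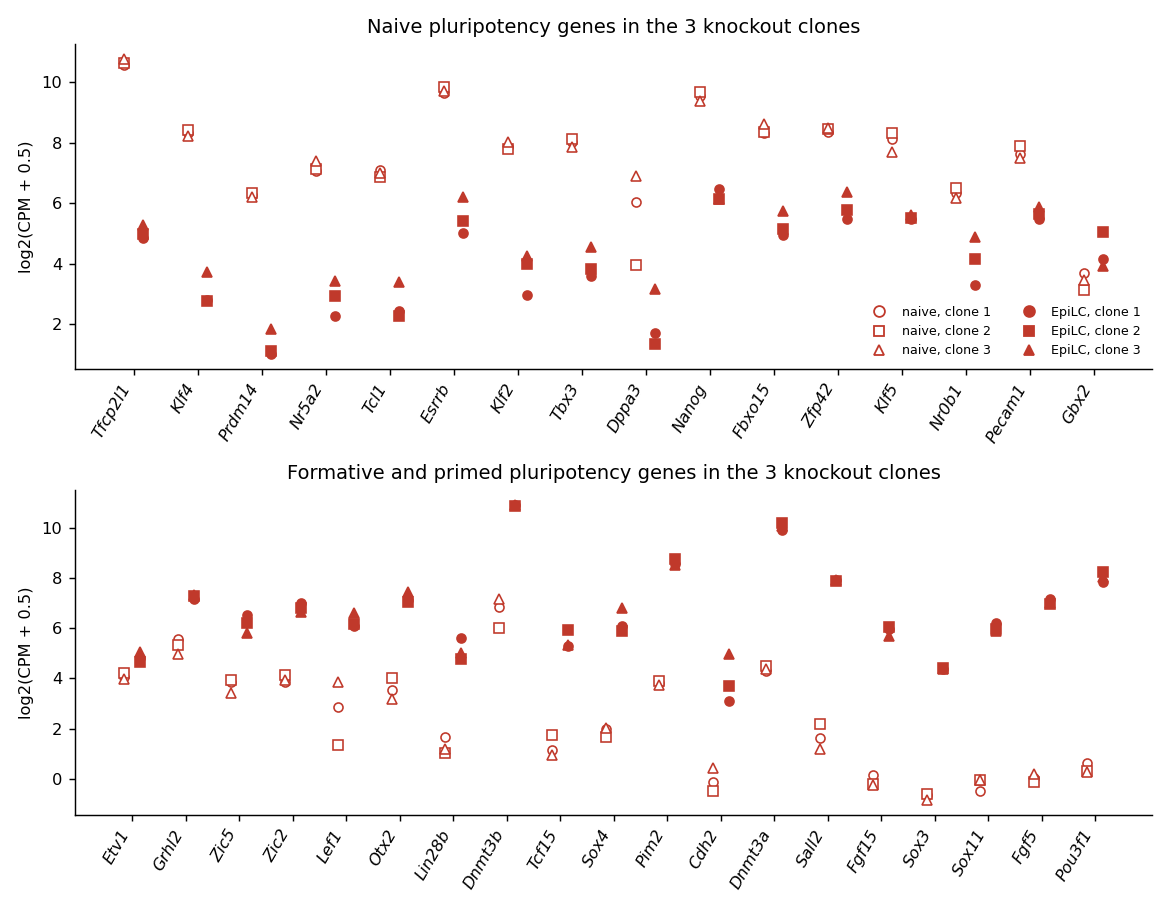
Levels of the 16 naive genes (top) and 19 of the 20 formative genes (bottom) in log2(CPM + 0.5) in the 6 knockout libraries, 1 marker per library, with open markers for naive and filled markers for EpiLC cells, and circles, squares and triangles for clones 1, 2 and 3. The open and filled markers of Tfcp2l1 are far apart (1530.4, 1608 and 1758 against 28.5, 30.8 and 38.3 CPM), as are those of Fgf5 in the opposite direction (0.535, 0.418 and 0.646 against 143, 125 and 129 CPM).

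Targets of LIF fell as well, and those of WNT signalling, which GSK3 inhibition also holds up, fell more often than they rose. All 10 tested genes of the LIF and STAT3 response fell, with a median log2 change of -2.30, and 1 listed gene had too few counts to test. Socs3, the feedback inhibitor that STAT3 induces, was at 118, 149 and 134 CPM in naive and 3.44, 3.46 and 2.56 CPM in EpiLC knockout cells (-5.40 ± 0.16, adjusted p = 1.89e-07), with the 3 clones alike in both states. Stat3 itself fell from 184, 173 and 202 to 32.9, 34.6 and 33.7 CPM (-2.46 ± 0.10, adjusted p = 5.72e-07). The receptor subunits Lifr and Il6st fell by 1.61 and 2.14, Bcl3, an IkB-like coactivator, by 5.41, and the kinase gene Pim3 by the least, 0.81. Of 16 WNT targets and TCF factors, 8 fell and 4 rose, with a median of -0.33. Axin2, the feedback inhibitor of beta-catenin, fell from 143, 93.2 and 160.4 to 18.9, 23.6 and 18.9 CPM (-2.66 ± 0.38, adjusted p = 0.000368), its 3 EpiLC values all under its lowest naive one. Cdx1 fell by 7.39, T (brachyury) by 5.18 and Rnf43, which removes WNT receptors, by 3.74. Those that rose were Lef1 (3.63 ± 0.49), a TCF-family factor also listed among the formative genes, and Dkk1 (1.82 ± 0.56), Nkd1 (1.62 ± 0.33) and Wnt3 (1.31 ± 0.46). Tcf7l1, the repressor of the family, was not called (-0.05 ± 0.13, adjusted p = 0.782).

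Sp5, an SP-family factor that WNT signalling induces, had the largest fall of these genes, and its promoter is shown because it is the WNT target with a TCF motif in the window searched. It was at 54.7, 24.9 and 83 CPM in naive and 0.138, 0.291 and 0.394 CPM in EpiLC knockout cells (log2 change -7.58 ± 0.29, adjusted p = 3.57e-07). Naive clone 2 had the lowest of the naive values, and each EpiLC value was under 1 CPM. The window from 250 bases before to 50 bases after the RefSeq start (assembly GRCm38.p6) held 1 copy of the TCF recognition letters CTTTGAT, searched on both strands, at chr2:70474808-70474836 on the plus strand, beginning 104 bases before the start; the capitals mark those letters.
Sp5: ggcaaggccccCTTTGATcaggaaaatcc
Such a copy was present in 4.29% of the 27025 genes of the promoter table, and among the 11 matched WNT targets and TCF factors only in Sp5 (9.09%). A match of letters is a description of the window and not a binding site.

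Core pluripotency factors mostly rose or held their level. Of 10, 6 rose and 1 fell, with a median log2 change of 1.18. Pou5f1 (Oct4), which both states require, was at 725, 602 and 641 CPM in naive and 815, 694 and 651 CPM in EpiLC knockout cells; the values of the states overlapped and the change was not called (0.13 ± 0.08, adjusted p = 0.168). Its presence in all 6 libraries matches the label of pluripotent cells. Sox2, its partner, fell by 1.28. Utf1, a chromatin factor of pluripotent cells, rose from 19.6, 19.2 and 25.6 to 347, 467 and 409 CPM (4.25 ± 0.14, adjusted p = 2.33e-07), and Lin28a, which blocks let-7 maturation, from 73.6, 33.9 and 98.9 to 599, 569 and 537 CPM (3.17 ± 0.29, adjusted p = 2.87e-05). For both genes each EpiLC value was several times the highest naive one, and the lowest naive value of Lin28a was that of clone 2. Dppa4 (1.60 ± 0.11), Dppa2 (1.56 ± 0.10), Foxd3 (1.41 ± 0.24) and Zfp281 (0.94 ± 0.16) rose less, and Sall4 was not called (-0.24 ± 0.10, adjusted p = 0.0533).

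Formative genes rose without exception in the knockout clones: 20 of 20 were called higher in EpiLCs, with a median log2 change of 4.56. Pou3f1 (Oct6; chr4:124656807-124660655), a POU factor of the postimplantation epiblast, went from 1.07, 0.752 and 0.707 to 229, 300.0 and 265 CPM (8.28 ± 0.27, adjusted p = 2.33e-07), the highest change of the list. Fgf5, the classical marker of that tissue, went from 0.535, 0.418 and 0.646 to 143, 125 and 129 CPM (7.95 ± 0.18, adjusted p = 6.82e-08). The clones lay within a narrow band in both states for these genes. Otx2, which directs enhancer use in formative cells, rose from 11.1, 15.8 and 8.58 to 139, 133 and 172 CPM (3.67 ± 0.35, adjusted p = 3.33e-05), highest in clone 3. Sall2, a zinc finger factor, rose by 6.43, the SOX factors Sox11, Sox3 and Sox4 by 7.41, 7.30 and 4.57, Fgf15 by 7.08, the bHLH factor Tcf15 by 4.55 and the kinase Pim2 by 4.84. Lower in the list were Grhl2 (1.97 ± 0.20), which opens epithelial enhancers, the ZIC factors Zic2 (2.89 ± 0.12) and Zic5 (2.49 ± 0.13), and Etv1 (0.76 ± 0.15), whose naive values of 16.3, 18 and 15.5 CPM were still all under its EpiLC values of 27.7, 24.4 and 32.8 CPM.

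Genes that write, erase or guard DNA methylation changed in both directions, 5 of 10 up and 2 down (median 0.73). The de novo methyltransferases and their cofactor rose together: Dnmt3a from 19.2, 22.1 and 20.2 to 963, 1152 and 1082 CPM (5.70 ± 0.08, adjusted p = 4.3e-09), Dnmt3b from 115, 64.3 and 142 to 1933, 1844 and 1907 CPM (4.22 ± 0.30, adjusted p = 6.83e-06), and Dnmt3l from 2.73, 1.53 and 6.95 to 275, 285 and 495 CPM (6.70 ± 0.28, adjusted p = 5.34e-07). In each case all EpiLC values were far above all naive ones, and for Dnmt3b and Dnmt3l naive clone 2 was lowest. Tet2, a dioxygenase that oxidizes methylcytosine, fell from 285, 276 and 233 to 18.8, 28.3 and 22 CPM (-3.54 ± 0.29, adjusted p = 1.37e-05), and Zfp57, which guards imprints, fell by 1.53. Tet3 and Tdg rose by 1.64 and 1.5. The maintenance enzyme Dnmt1 (-0.15 ± 0.07, adjusted p = 0.105), its partner Uhrf1 (-0.15 ± 0.09, adjusted p = 0.15) and Tet1 (-0.04 ± 0.13, adjusted p = 0.797) were not called.

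Most targets of the FGF and ERK pathway, which the MEK inhibitor of the naive medium holds down, rose. Of 21 tested FGF and ERK response genes, 16 rose and 1 fell, with a median log2 change of 1.66. Spry4, a feedback inhibitor of receptor tyrosine kinases, rose from 0.683, 0.613 and 0.707 to 39.4, 53.8 and 41.3 CPM (6.05 ± 0.19, adjusted p = 2.25e-07), and Dusp6, a phosphatase of ERK, from 8.8, 10.8 and 8.95 to 183, 183 and 178 CPM (4.26 ± 0.20, adjusted p = 9.5e-07). The knockout clones were close to each other for these targets. Dusp4, another ERK phosphatase, rose by 6.88, the immediate early factor Egr1 by 4.74, Myc by 4.64, the ligand Fgf8 by 4.23, and the receptor Fgfr2 by 3.84. Fos fell by 0.84. The ligand Fgf4 (-0.08 ± 0.14, adjusted p = 0.638) and the receptor Fgfr1 (0.24 ± 0.12, adjusted p = 0.119) were not called.

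In the NODAL and activin response 6 of 12 genes rose and 3 fell (median 0.25). The feedback inhibitors Lefty1 and Lefty2 rose: Lefty1 went from 1.4, 0.919 and 0.80 to 122, 108 and 142 CPM (6.89 ± 0.26, adjusted p = 3.4e-07), and Lefty2 from 11.6, 4.76 and 3.44 to 53.5, 42.3 and 54.1 CPM (3.06 ± 0.34, adjusted p = 8.56e-05). All EpiLC values were above all naive ones for both genes. The corepressor Skil rose by 3.07, and the SMAD partner Foxh1 by 1.15. The ligand Nodal (0.15 ± 0.11, adjusted p = 0.268), its coreceptor Tdgf1 (0.12 ± 0.15, adjusted p = 0.502) and Smad2 (0.00 ± 0.07, adjusted p = 0.994) were not called, while Smad3 (-0.51 ± 0.17), Smad7 (-0.78 ± 0.11) and Gdf3 (-0.70 ± 0.10) fell. In the BMP pathway 5 of 10 rose and 1 fell (median 0.56), namely the inhibitors of bHLH factors Id1 (0.97 ± 0.37, adjusted p = 0.0481), Id2 (2.36 ± 0.31) and Id3 (3.09 ± 0.31), the receptor Bmpr1a (0.83 ± 0.09) and the signal transducer Smad5 (0.70 ± 0.12) up, and Smad9 (-1.52 ± 0.23) down. In the control clones 2 of these 10 rose and 5 fell (median -0.32), and 2 were called for a difference between the transitions.

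The genes that changed most, at an average level of 5 CPM or more, were not all members of these groups. On the rising side stood Pou3f1 and Fgf5 again, with Ccdc194 (8.26 ± 0.39), Tmem54 (8.24 ± 0.32), Zfp608 (8.11 ± 0.32), Mmp25 (8.11 ± 0.38), Vrtn (8.04 ± 0.16), Syt13 (7.90 ± 0.28), Myrf (7.89 ± 0.17) and Pcdh1 (7.88 ± 0.27). Myrf, a membrane-bound transcription factor best known from oligodendrocytes, went from 1.4, 1.42 and 1.32 to 286, 328 and 378 CPM (adjusted p = 6.57e-08), and Vrtn, the vertnin gene, from 0.357, 0.362 and 0.338 to 97.5, 80.5 and 106 CPM (adjusted p = 4.28e-08). Both stood under 2 CPM in each naive library, and the clones were close to each other in either state. On the falling side, Aqp3, an aquaglyceroporin, went from 345, 379 and 380.1 to 1.63, 1.48 and 1.69 CPM (-7.84 ± 0.16, adjusted p = 5.67e-08), Trpm1, a cation channel, from 244, 223 and 198 to 1.4, 0.846 and 1.27 CPM (-7.56 ± 0.25, adjusted p = 2.33e-07), and Mal, a membrane proteolipid, from 26.8, 22.8 and 61.1 to 0.138, 0.159 and 0.0563 CPM (-8.13 ± 0.36, adjusted p = 6.69e-07). Sp5, Cdx1, the ETS factor Spic (-7.11 ± 0.18) and Ly6g6e (-7.08 ± 0.33) followed. Nat8f3 fell from 1717 counts over the 3 naive libraries to 1 count over the 3 EpiLC libraries, a ratio of 1967 after scaling (95% counting interval 352.5 to 77720), and Hoxc12 from 1243 to 3 counts, a ratio of 474.6 (162 to 2304). In the control clones Nat8f3 went from 89 to 3 counts, a ratio of 27.88 (9.237 to 137.8). Its naive count there was far below that of the knockout clones. Hoxc12 went from 1017 to 2 counts in the control clones (477.9, 132 to 3952). Nat8f7 fell too in the knockout clones (-8.24 ± 0.60). The Nat8f genes are near-identical copies between which reads may be split. Per kilobase of transcript, the largest gains of CPM in the knockout transition were those of Ptma (673 to 1251 CPM per kb), Pkm (239 to 657 CPM per kb), Actb (796 to 1184 CPM per kb), Ldha (to 466 CPM per kb) and Dnmt3b (21 to 371 CPM per kb), and the largest losses those of mt-Co1 (4476 to 3171 CPM per kb), mt-Cytb (2374 to 1389 CPM per kb), Hsp90aa1 (1048 to 601 CPM per kb), mt-Nd6 (892 to 495 CPM per kb) and Rps29 (1160.4 to 768 CPM per kb).

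The control clones made most of the same changes. In them 10484 genes were called between EpiLC and naive cells (57.8%), 5173 higher (28.5%) and 5311 lower (29.3%), and the groups did not overlap for 10737 genes (59.2%). Of the genes called in both genotypes, 8645 moved the same way, which is 78.3% of the knockout calls and 82.5% of the control calls, and 51 moved opposite ways. The log2 changes of the genotypes, which share no library, correlated across genes with a Pearson r of 0.905 and a Spearman rho of 0.874. The difference between the transitions, knockout minus control, was called for 228 genes (1.26%), of which 136 were higher (0.75%) and 92 lower (0.507%); 3183 genes had an unadjusted p under 0.05. With at least a 2-fold difference besides, 169 were called (0.932%). Among the 228, 104 moved the same way in both genotypes but further in the knockout clones, 50 less far, and 74 in opposite directions by the fitted values. The genotypes were farther apart in the naive state for 111 of them and in EpiLCs for 117.

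**Figure D2:**
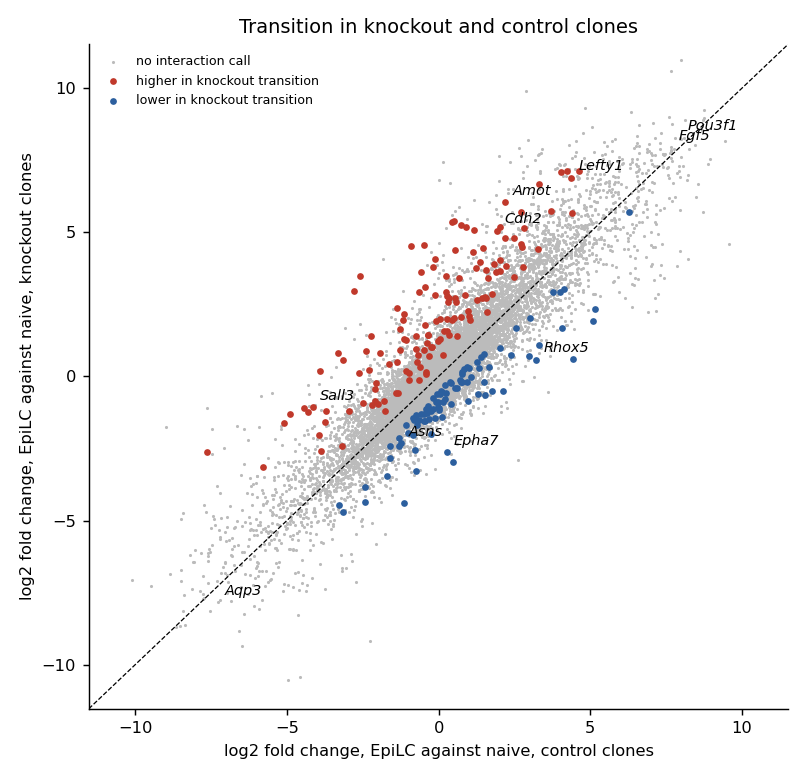
Log2 change of each tested gene in the control transition (horizontal axis) against the knockout transition (vertical axis), with genes whose transitions differed at an adjusted p under 0.05 marked in red where the knockout value was higher and in blue where it was lower. Most points lie near the dashed line of equal change (Pearson r of 0.905 across genes), and the 136 red and 92 blue genes lie to either side of it.

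The number of differences called rested on single clones. Leaving out a clone with both of its libraries, the count was 0 without knockout clone 1 (2097 genes at an unadjusted p under 0.05), 2 without knockout clone 2, 137 without knockout clone 3, 24 without control clone 1, 2 without control clone 3 and 826 without control clone 2, the last including all 228. DESeq2's Wald test called 896 genes, 226 of them among the 228. The genes named below are those chosen by rule for the size of their difference or as list members; each kept its direction in every alternative in which it was tested, and the calls are given with that limit.

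Rhox5 and Dusp1 were called in 11 of the 13 alternatives, the most of the named genes, and both were higher in naive knockout than in naive control cells. Rhox5 (ENSMUSG00000095180.8, chrX:37804842-37808876), an X-linked homeobox gene that DNA methylation silences, was at 344, 267 and 232 CPM in naive and 486, 369.7 and 399.5 CPM in EpiLC knockout cells (log2 change 0.58 ± 0.13, adjusted p = 0.00451), and at 30.0, 92.5 and 30.1 CPM in naive and 342, 638 and 309.9 CPM in EpiLC control cells (3.22). Naive knockout libraries were all above the naive control libraries, while the EpiLC values of the genotypes overlapped. The difference between transitions was -2.63 ± 0.19 (adjusted p = 0.00627), and -2.85 (adjusted p = 7.1e-05) without control clone 2. Prss42, a serine protease gene, showed the same arrangement, with naive values of 20.4, 12.5 and 13.1 CPM in knockout and 0.993, 2.92 and 1.35 CPM in control clones and EpiLC values of 11.3, 9.78 and 10.9 and 5.24, 12.7 and 4.92 CPM; it was called lower in the knockout transition and higher in the control transition (-0.49 ± 0.17 and 2.12, difference -2.61 ± 0.26, adjusted p = 0.0133). Dusp1, an immediate early phosphatase of MAP kinases, fell in every knockout clone, from 37.9, 42 and 36.8 to 26.2, 27.4 and 23.3 CPM (-0.60 ± 0.13, adjusted p = 0.00422), and rose in every control clone, from 17.4, 22.9 and 25 to 44, 73.4 and 47.6 CPM (1.31, adjusted p = 6.45e-05). Neither transition had overlapping states, and their difference was -1.92 ± 0.19 (adjusted p = 0.0133).

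Further genes fell more, or rose less, in the knockout transition. Epha7, an ephrin receptor, fell from 13.2, 11.5 and 15.3 to 2.96, 1.9 and 1.75 CPM in knockout cells (-2.61 ± 0.33) and was not called in control cells (0.27, adjusted p = 0.482; difference -2.89 ± 0.45, adjusted p = 0.0308). Folh1, a glutamate carboxypeptidase, fell from 10.5, 9.97 and 8.67 to 1.42, 0.899 and 0.732 CPM (-3.28 ± 0.25; control -0.75, difference -2.53 ± 0.38, adjusted p = 0.0286). In both genes the naive knockout libraries stood above each EpiLC knockout library. Vegfa, the angiogenic ligand, fell from 78.4, 139 and 71.4 to 18.6, 17.1 and 12.2 CPM (-2.55 ± 0.24) and in control cells from 74.9, 132 and 92.9 to 53.4, 46.8 and 71.2 CPM (-0.78, difference -1.76 ± 0.33, adjusted p = 0.0455). Ism2 fell further than in controls (-4.36 ± 0.25 against -2.41, adjusted p = 0.0346), and Cotl1, an actin-binding protein, was not called in the knockout transition while it rose in the control transition (-0.51 ± 0.22 against 1.76, adjusted p of the difference = 0.0224). The ERK targets Spry1 and Etv5 rose less than in controls: Spry1 by 2.92 against 4.01 (adjusted p of the difference = 0.0331) and Etv5 by 0.24 against 0.83 (0.0356). So did Dnmt3a, by 5.70 against 6.28 (difference -0.58 ± 0.09, adjusted p = 0.0325). Etv4, of the same ETS family as Etv5, had a difference of -1.60 ± 0.38 that was not called (adjusted p = 0.0835).

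Genes of the opposite kind rose more in the knockout transition. Amot (angiomotin; chrX:145446425-145505181), an adaptor of the Hippo pathway, went from 0.624, 0.474 and 0.80 to 49.6, 44.9 and 32.1 CPM in knockout cells (6.04 ± 0.31, adjusted p = 1.33e-06) and from 2.47, 1.03 and 2.34 to 8.95, 7.96 and 8.95 CPM in control cells (2.20). All 3 EpiLC knockout values exceeded all 3 EpiLC control values, and the difference was 3.84 ± 0.40 (adjusted p = 0.0153) and 4.15 (adjusted p = 0.00303) without control clone 2. Id2 rose from 1.57, 0.919 and 1.85 to 9.23, 6.95 and 5.8 CPM in the knockout clones (2.36 ± 0.31, adjusted p = 0.000221) and fell from 5.19, 15.6 and 9.0 to 2.61, 7.32 and 2.09 CPM in the control clones (-1.38, adjusted p = 0.00343; difference 3.74 ± 0.43, adjusted p = 0.019). Its naive knockout values were all under its naive control values. Lefty1, described above, started lower in the knockout clones, where control clones had 16.1, 2.63 and 11.5 CPM in naive and 249, 87.3 and 226 CPM in EpiLC cells (4.37, difference 2.52 ± 0.32, adjusted p = 0.019). Pmepa1, which dampens activin signalling, rose from 6.57, 10.6 and 18.1 to 37.4, 34.9 and 41.6 CPM, where control clones went from 25, 28.8 and 28.2 to 22.9, 13.2 and 25.2 CPM (1.80 ± 0.27 against -0.46, adjusted p of the difference = 0.0343). Its naive knockout values lay under every control value of that state.

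Cdh2 (N-cadherin) rose from 0.416, 0.223 and 0.861 to 8.17, 12.3 and 31.2 CPM in the knockout clones, to the highest level in clone 3, and from 2.6, 1.57 and 1.22 to 11.7, 4.03 and 5.79 CPM in the control clones (5.06 ± 0.32 against 1.94, adjusted p of the difference = 0.02). Lbh, a transcription cofactor, rose from 1.6, 1.98 and 2.12 to 15.9, 11.6 and 15.8 CPM (2.91 ± 0.39) and was not called in control cells (-0.65, adjusted p = 0.168; adjusted p of the difference = 0.0286). Chst15, a sulfotransferase (7.14 ± 0.32 against 4.24, 0.0248), Fjx1, a secreted four-jointed homologue (5.71 ± 0.30 against 2.73, 0.019), and Dzip1l, a ciliary zinc finger protein (5.18 ± 0.46 against 2.01, 0.0455), rose in both transitions and further in the knockout one. Sall3 fell in both and less in the knockout clones, from 41.1, 37.7 and 28.4 to 13.1, 18.1 and 20.7 CPM (-1.05 ± 0.29 against -4.14, 0.0248). Smad5 rose by 0.70 and fell in controls (-0.31, adjusted p of the difference = 0.0331). Also called in opposite directions with smaller values were the telomerase-associated Tep1 (-0.41 ± 0.10 against 0.62), the antiproliferative gene Btg2 (0.32 ± 0.10 against -0.63), the calcium-binding grancalcin Gca (0.49 ± 0.11 against -0.72) and Nol4l (0.74 ± 0.12 against -0.67), with adjusted p of the difference from 0.019 to 0.0272.

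**Figure D3:**
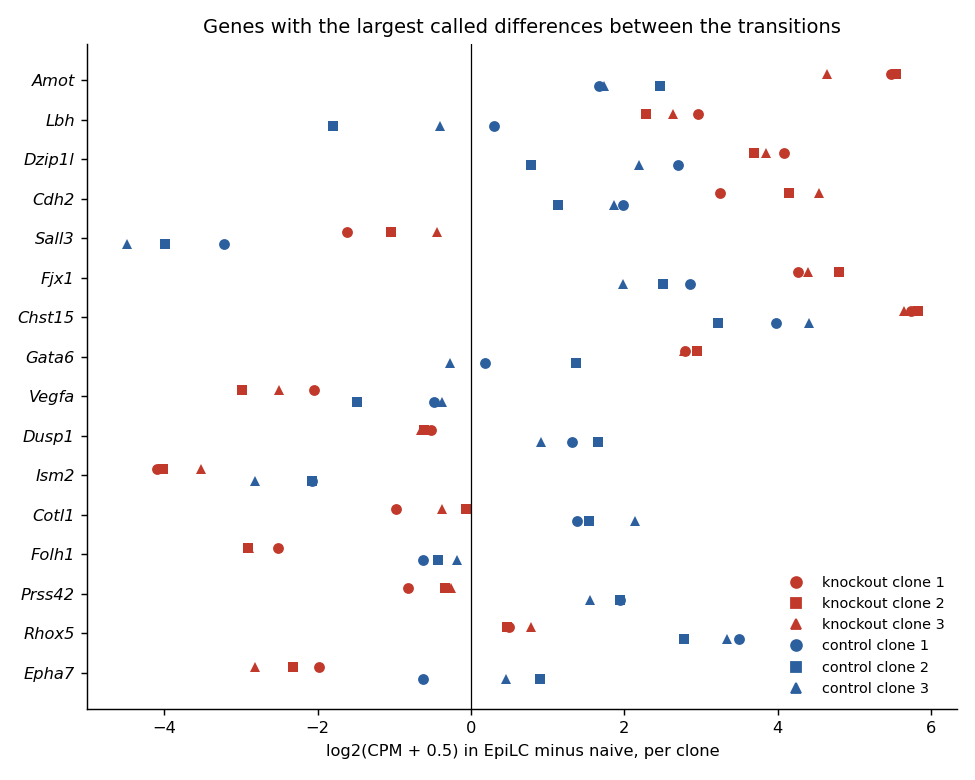
EpiLC minus naive difference of each clone, in log2(CPM + 0.5), for the genes with the largest called differences between transitions, with red markers for knockout and blue for control clones and circles, squares and triangles for clones 1, 2 and 3. Dusp1 has all 3 knockout markers under 0 and all 3 control markers above it, and for Amot the knockout markers lie above the control markers.

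Amino acid metabolism is a field in which ATF4, the transcription factor of the integrated stress response, sets the level of many genes: it induces enzymes and transporters when amino acids run short. The list held 27 such targets, with Atf4 included. In the knockout transition 10 fell and 2 rose, so that 12 of 27 were called, a smaller share than the 60.9% of all genes, and the median log2 change was -0.28 (-0.12 without knockout clone 2 and -0.57 without knockout clone 3). Atf4 itself went from 335, 394 and 316 to 185, 173 and 194 CPM in knockout cells (-0.91 ± 0.19, adjusted p = 0.00283), with each EpiLC value under each naive one. In control cells it was at 379, 641 and 459.6 CPM and 648, 494 and 609.9 CPM (0.27, adjusted p = 0.247), where the states overlapped. Asns (ENSMUSG00000029752.12, chr6:7675169-7693254), which makes asparagine, fell from 868, 1082 and 900.0 to 173, 198 and 199.8 CPM in knockout cells (-2.32 ± 0.10, adjusted p = 6.69e-07). Its control values were 975, 1123 and 939.8 CPM and 446, 395 and 449 CPM (-1.23), and the difference between transitions was -1.08 ± 0.14 (adjusted p = 0.019). EpiLC knockout libraries were all below EpiLC control libraries for this gene, while the naive values of the genotypes overlapped.

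For the other targets that fell, Jdp2, an AP-1 repressor, fell by 3.48, the stress factor Nupr1 by 2.72, the proapoptotic factor Ddit3 (CHOP) by 2.30, cystathionine gamma-lyase Cth by 1.94, the pseudokinase Trib3 by 1.22, proline-making Pycr1 by 0.94, the alanine transaminase Gpt2 by 0.89 (adjusted p = 0.04996) and Atf5 by 0.53. The 2 that rose were Slc7a11, the cystine importer, from 3.51, 3.2 and 2.77 to 12.7, 10.9 and 11.8 CPM (1.90 ± 0.28, adjusted p = 0.000388), and Phgdh, the entry enzyme of serine synthesis (0.82 ± 0.32, adjusted p = 0.0499). Chac1, which degrades glutathione, was at -0.65 ± 0.51 (adjusted p = 0.296) and the leucine transporter subunits Slc7a5 and Slc3a2 at 0.03 ± 0.21 and 0.04 ± 0.23 (adjusted p = 0.9 and 0.894). In the control transition 8 targets rose and 5 fell (median 0.29). The fitted difference between transitions was below 0 for all 27, with a median of -0.94 where the median over all genes was 0.00, yet only Asns was called. Without control clone 2, 18 of the 27 were called and the median was -1.37. None of the 27 was called without knockout clone 1, knockout clone 2, control clone 1 or control clone 3, where the medians were -0.99, -0.60, -0.58 and -0.77. In summed CPM of these genes, control clone 2 was highest of the naive controls (4034, 6476 and 4708 for clones 1, 2 and 3). It was lowest of the EpiLC controls (6386, 4536 and 6184). The knockout sums were 3867, 4932 and 3362 in naive and 2518, 2444 and 2652 in EpiLC cells, falling in each clone.

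**Figure D4:**
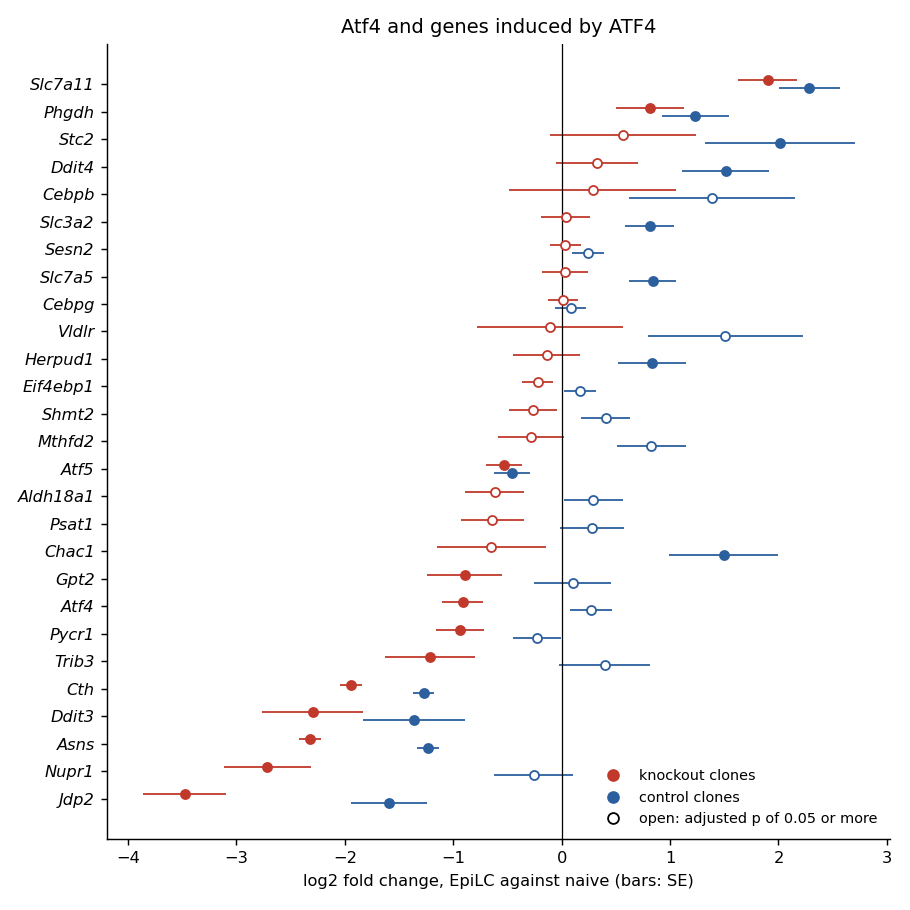
Log2 change of each of the 27 ATF4 targets in the knockout (red) and the control (blue) transition, with bars for the standard error from the fit and open markers where the adjusted p was 0.05 or more. Each knockout value lies below the control value of the same gene, and the median of the 27 is -0.28 in the knockout and 0.29 in the control transition.

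The promoters of these targets often carry the letters that ATF4 and its C/EBP partners recognise, TGATGNAA, so windows that hold them are printed for 7 of the 9 targets with a copy. In the RefSeq promoter table (GRCm38.p6, the 300 bases from 250 before to 50 after a start, both strands searched) a copy was found in 9 of the 24 targets that matched the table by symbol (37.5%), in 5 of 13 matched cytosolic aminoacyl-tRNA synthetase genes (38.5%) and in 1219 of all 27025 genes (4.51%). The following stretches run 5′ to 3′ along the strand of the gene, with the copy in capitals; TTGCATCA is the same motif read from the other strand. They lie at chr6:7693214-7693243 (minus strand, copy 23 bases before the start), chr12:85599372-85599401 (plus, 33 before), chr7:126625562-126625591 (minus, 110 before), chr11:120643833-120643862 (minus, 103 before), chr2:119351038-119351067 (plus, 193 before), chr8:94386306-94386335 (plus, 112 before) and chr3:50443661-50443690 (minus, 66 before).
Asns: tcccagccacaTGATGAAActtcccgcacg
Jdp2: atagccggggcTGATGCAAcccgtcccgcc
Nupr1: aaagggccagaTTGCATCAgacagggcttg
Pycr1: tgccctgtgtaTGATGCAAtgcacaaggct
Chac1: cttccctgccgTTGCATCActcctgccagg
Herpud1: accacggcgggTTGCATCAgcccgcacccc
Slc7a11: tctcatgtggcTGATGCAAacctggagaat
The other targets with a copy were Trib3, where it begins 14 bases after the start, and Vldlr, where it begins 200 bases before it. Of the 9 genes Asns, Jdp2, Nupr1, Pycr1 and Trib3 fell in the knockout transition, Chac1, Herpud1 (-0.14 ± 0.31, adjusted p = 0.718) and Vldlr (-0.11 ± 0.67, adjusted p = 0.9) were not called, and Slc7a11, which has a second copy 47 bases before its start, rose. The copies thus stand before genes of each direction, and no binding was measured.

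The amino acid enzymes themselves moved in both directions in the knockout clones. In serine, glycine and one-carbon metabolism 6 of 19 tested genes rose and 4 fell (median -0.12; -0.03 without knockout clone 2 and -0.07 without knockout clone 3). With no filter on low counts 7 rose and 9 fell. Within the glycine cleavage system, the decarboxylase Gldc rose from 71.7, 72.2 and 97.6 to 224, 233 and 289 CPM (1.63 ± 0.07, adjusted p = 5.53e-07), whereas the aminomethyltransferase Amt fell from 168, 197 and 204 to 61, 65.8 and 67.4 CPM (-1.55 ± 0.10, adjusted p = 5.27e-06). Amt fell less in control clones (-0.47, adjusted p of the difference = 0.0207), while no knockout naive value overlapped an EpiLC value in either gene. The folate dehydrogenases Aldh1l1 and Aldh1l2 fell by 3.02 and 2.09. In proline, arginine, glutamine, glutamate and aspartate metabolism 8 of 24 rose and 9 fell (median -0.04; -0.01 without knockout clone 1, -0.11 without knockout clone 2 and 0.05 without knockout clone 3). Ornithine decarboxylase Odc1 (1.92 ± 0.07) and spermidine synthase Srm (1.06 ± 0.09) rose, and argininosuccinate synthase Ass1 fell by 2.27. Its follow-on enzyme Asl (-0.23 ± 0.09 against 0.42, adjusted p of the difference = 0.0458) and the proline oxidase Prodh (-0.20 ± 0.11 against 0.73, 0.0374) were lower relative to the control transition.

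Threonine, lysine and branched-chain amino acid genes mostly fell, 13 of 19 with 3 higher (median -0.76). Tdh, the threonine dehydrogenase on which mouse naive cells depend, fell from 645, 599.7 and 693 to 38, 60.8 and 108 CPM (-3.35 ± 0.31, adjusted p = 2.81e-05), least in clone 3. The cytosolic branched-chain transaminase Bcat1 fell from 1115, 1303 and 1285 to 243, 265 and 329.7 CPM (-2.15 ± 0.10, adjusted p = 7.68e-07), further than in controls (-1.32, adjusted p of the difference = 0.0331). For both genes all EpiLC values lay far under the naive ones. Of 21 methionine, cysteine and glutathione genes 10 fell and 5 rose (median -0.65; -0.31 without knockout clone 2 and -0.34 without knockout clone 3). The betaine methyltransferases Bhmt and Bhmt2 fell by 6.62 and 6.89, and cysteine dioxygenase Cdo1 by 3.85. The subunits of glutamate-cysteine ligase, Gclm and Gclc, rose by 2.10 and 1.18, and Ggct, of the glutathione cycle, by 1.21 against -0.03 in controls (adjusted p of the difference = 0.0303). Among 31 tested amino acid transporters 13 rose and 7 fell (median 0.39), with Slc1a3 (5.76 ± 0.30) and Slc7a7 (4.74 ± 0.45) up and the glutamate transporter Slc1a1 (-3.59 ± 0.23) and the arginine transporter Slc7a1 (-1.35 ± 0.19) down. The 20 cytosolic aminoacyl-tRNA synthetases changed little: 4 rose, by at most 0.76 (Kars), and 4 fell, by at most 1.03 (Qars), with a median of -0.22. Without control clone 2, 10 of them fell and 5 rose. Fewer were called without a knockout clone: 2 fell and 2 rose without knockout clone 1, and 2 fell and 3 rose without knockout clone 2 (median -0.10).

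In the knockout transition, of 23 glycolytic genes 13 rose and 7 fell (median 0.69). The lactate exporter Slc16a3 rose from 7.01, 6.55 and 3.51 to 343, 420.5 and 360.1 CPM (6.07 ± 0.20, adjusted p = 2.33e-07), lactate dehydrogenase Ldha from 366, 376 and 252 to 1618, 1589 and 1416 CPM (2.24 ± 0.15, adjusted p = 5.54e-06), and Pdk1, which inhibits pyruvate dehydrogenase, by 3.21. The states were apart in each of these, and naive clone 3 had the lowest values of Slc16a3 and Ldha. Isoforms of 1 step moved in opposite directions: Pfkl rose by 2.51 and Pfkp fell by 1.18, Ldhb fell by 1.37, and the glucose transporter Slc2a3 fell by 2.96 while Slc2a1 rose from 96.2, 92 and 75.7 to 172, 173 and 173 CPM (0.98 ± 0.10). Slc2a1 rose less than in controls (2.01, adjusted p of the difference = 0.0205). Pfkm, the muscle isoform of phosphofructokinase, was not called in the knockout transition (0.30 ± 0.12, adjusted p = 0.059) and rose in the control transition (1.34, adjusted p of the difference = 0.0369). Gapdh was not called (0.12 ± 0.07, adjusted p = 0.163).

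Genes of oxidative phosphorylation fell or were not called. None of the 77 tested nuclear genes was called higher and 36 were called lower, by small amounts (median -0.23). Of the 7 tested mitochondrially encoded genes 5 fell (median -0.73), and 2 fell without the clone block. The other 6 on that list were at 0 counts in every library. This does not show that their RNA was absent, and its cause was not tested. The mitochondrial shares of counts given above lack these genes. Uqcrc1, a core subunit of complex III, fell from 308, 337 and 337 to 187, 221 and 235 CPM (-0.62 ± 0.07, adjusted p = 9.81e-05), further than in controls (-0.07, adjusted p of the difference = 0.0434). Of 87 cytosolic ribosomal protein genes 17 fell and 3 rose, with a median of -0.14. With DESeq2's size factors 15 fell and 6 rose. In that list 4 fell and 4 rose without knockout clone 1 (median -0.02), and 8 fell and 1 rose without knockout clone 2. Of the respiratory chain genes encoded in the nucleus, 21 were lower and 1 was higher without knockout clone 1 (median -0.13). Cholesterol synthesis went up, 17 of 23 genes with 2 lower (median 0.76): Idi1, which isomerizes the isoprene unit, rose from 8.85, 10.3 and 5.78 to 28.8, 18.5 and 23.1 CPM (1.51 ± 0.22, adjusted p = 0.000408). Among 25 mTORC1 regulators and lysosomal genes 15 fell and 6 rose (median -0.80). Mitf, a factor that drives lysosomal genes, fell from 94.4, 78.1 and 105 to 2.5, 1.43 and 2.9 CPM (-5.37 ± 0.17, adjusted p = 2.33e-07), its relative Tfeb by 2.40, the hydrolase Hexa by 2.73 and the cathepsins Ctsl and Ctsb by 1.85 and 1.80, and the EpiLC values of Mitf were a small part of each naive value.

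Iron handling is of interest for a protein that carries iron. In the knockout transition 7 of 16 tested genes rose and 2 fell (median 0.17), so that the share called was near the 60.9% of all genes and the counts say little about the list. The exporter ferroportin, Slc40a1, rose by 5.20, the importer Slc39a14 by 4.77 and the ferritin heavy chain Fth1, a store that PCBP1 loads, by 1.36. The transferrin receptor Tfrc fell by 0.79, and Fbxl5, the iron sensor that degrades IRP2, by 0.96. No member of the list was called for a difference from the control transition.

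Markers of endoderm rose in the knockout clones from very low to low levels. Of 12 tested markers 11 rose and none fell, with a median log2 change of 3.86, where 2 rose and 1 fell in the control clones (median 0.46). A further 4 on the list had too few counts to test. The count of rises is not independent of the count filter. Markers under its floor in naive cells passed only through libraries where they were higher. The summed level of the 12 tested markers was 6.39, 5.07 and 11.6 CPM in naive and 45.1, 60.7 and 50.8 CPM in EpiLC knockout cells. The control sums were 5.7, 18.2 and 6.64 CPM in naive and 9.03, 18.5 and 10.9 CPM in EpiLC cells, so that every EpiLC knockout library was above every other library. In RNA from whole cultures, more cells of a type and more RNA per cell cannot be told apart. Gata6, a factor of primitive endoderm, rose from 0.624, 0.919 and 1.08 to 7.3, 10.5 and 10.3 CPM (3.43 ± 0.35, adjusted p = 5.23e-05), and control clones had 0.481, 1.51 and 0.664 and 0.618, 4.71 and 0.466 CPM. Clone 2 had the highest EpiLC value of the controls, still under the knockout values, and the difference between transitions was 2.75 ± 0.51 (adjusted p = 0.0458). Gata4 rose from 0.267, 0.334 and 0.338 to 2.53, 4.1 and 1.86 CPM (3.11 ± 0.40; difference 3.55 ± 0.57, adjusted p = 0.0331).

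Gata6 and Gata4 were among 3 endoderm markers called for a difference between the transitions. The SOX factors Sox7 and Sox17 rose by 5.46 and 3.97 in the knockout clones, the receptor cubilin, Cubn, from 0.654, 0.418 and 0.677 to 11.4, 14.8 and 13.5 CPM (4.5 ± 0.30), its adaptor Dab2 by 3.74 and alpha-fetoprotein, Afp, by 4.24. In the control clones Afp also went up, from 1 to 11 counts over the group, a ratio of 11.7 (95% counting interval 1.701 to 503.8). Foxa2 went from 2 counts over the naive to 95 counts over the EpiLC knockout libraries, a ratio of 41.5 after scaling (95% counting interval 11.17 to 347.4), and Hnf4a was not called (0.00 ± 0.70, adjusted p = 1). Without control clone 2, 6 endoderm markers were called for the difference, and none without knockout clone 1, knockout clone 2 or control clone 3. The median difference of the list lay between 2.79 and 3.98 over the alternatives.

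Genes of the 2-cell-like state, a rare state of stem cell cultures that resembles the 2-cell embryo, rose as well. All 6 tested markers rose, with a median of 4.81 against 0.41 in the control clones. The other 4 had too few counts. The tested markers were very low in naive knockout cells and passed the count filter mainly through other libraries. The share that rose is therefore not independent of the filter. The summed levels of the 6 were 0.565, 1.5 and 0.185 CPM in naive and 8.43, 41.4 and 2.99 CPM in EpiLC knockout cells, so clone 2 held most of the signal. Control sums ranged from 0.769 to 3.82 CPM in naive and from 1.31 to 5.09 CPM in EpiLC cells, a range that holds EpiLC knockout clone 3 but not clones 1 and 2. Zscan4d went from 0.0297, 0.251 and 0.0308 to 1.06, 9.33 and 0.873 CPM (5.09 ± 0.36; difference 3.92 ± 0.47, adjusted p = 0.019) and Usp17lb from 0.0891, 0.39 and 0 to 2.09, 7.74 and 0.76 CPM (4.53 ± 0.49; difference 5.45 ± 0.70, adjusted p = 0.019), both members of multicopy families between which reads may be split. Without knockout clone 2, 5 markers were tested, the list's median was 4.25 in the knockout transition, and neither gene was called for the difference.

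**Figure D5:**
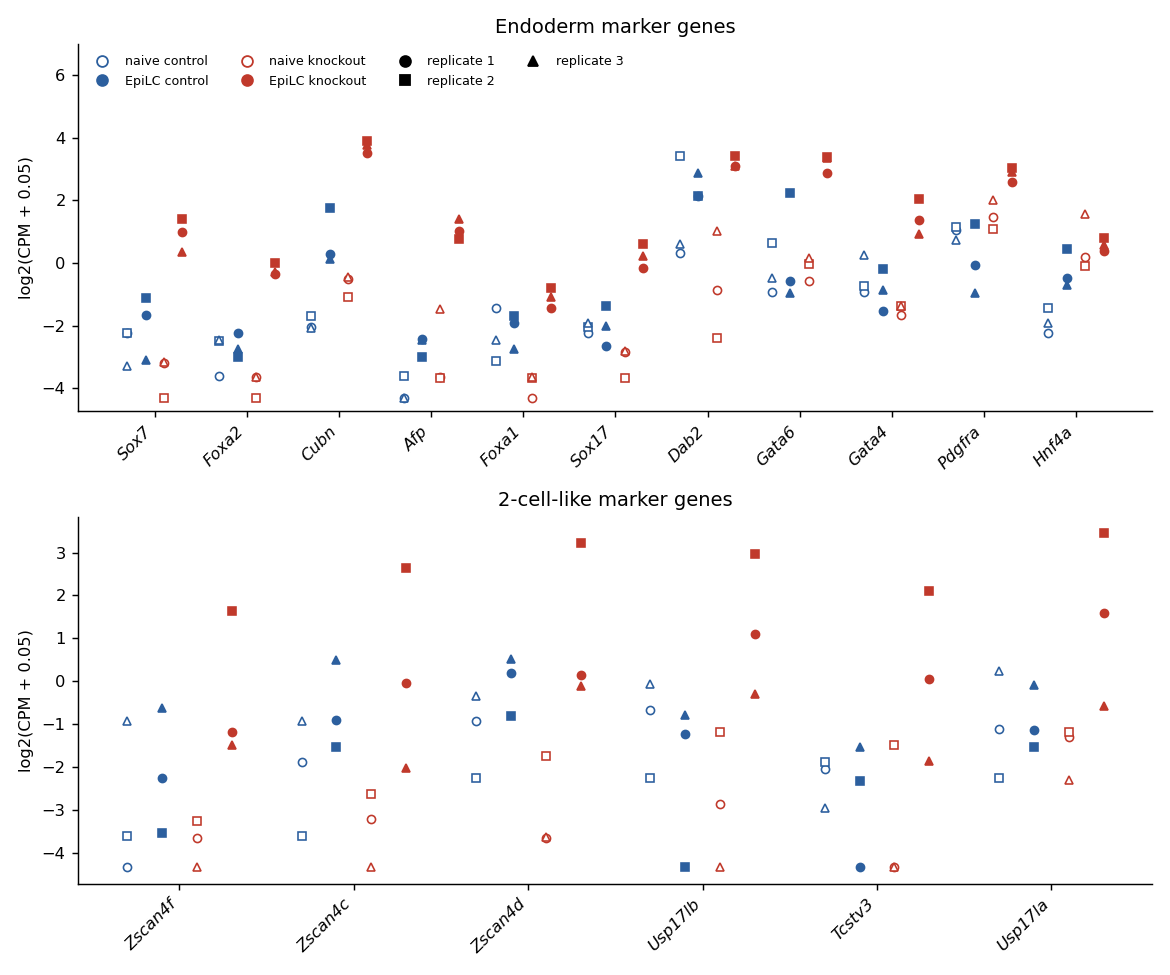
Levels in log2(CPM + 0.05) of 11 of the 12 tested endoderm markers (top) and the 6 tested 2-cell-like markers (bottom), 1 marker per library, with open markers for naive and filled for EpiLC cells, red for knockout and blue for control clones, and circles, squares and triangles for replicates 1, 2 and 3. Gata6 reaches 7.3, 10.5 and 10.3 CPM in the EpiLC knockout clones, and Zscan4d is highest in knockout clone 2.

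Markers of other lineages moved in both directions. Of 9 tested primitive streak and mesoderm markers 3 rose and 3 fell (median 0.18; 0.02 without knockout clone 1, 0.43 without knockout clone 2 and 0.78 without knockout clone 3). Eomes rose by 2.57, and T and Gsc fell by 5.18 and 4.96. Kdr, the VEGF receptor of mesoderm, fell by 1.25 and further in controls (-4.32, adjusted p of the difference = 0.019). Among 9 trophoblast markers 4 rose and 3 fell (median 0.40; 0.74 without knockout clone 1, -0.05 without knockout clone 2 and 1.09 without knockout clone 3). Krt18 rose (5.10 ± 0.29) and Tfap2c fell (-5.49 ± 0.29). The summed level of the 9 was 102 to 131 CPM in naive and 39.5 to 49.6 CPM in EpiLC knockout cells. It was 90.2 to 116 CPM in naive and 99.8 to 120 CPM in EpiLC control cells. None of the 9 was called for a difference between the transitions. Among 7 neuroectoderm markers 2 rose and 2 fell (1 fell without knockout clone 1 and 2 without knockout clone 2, and none rose in either). Of 7 fibroblast and feeder markers 4 rose and 3 fell: Dcn went from 0 to 839 counts over the group (at least 244.2-fold higher, against a floor of 3 counts over the naive group), Acta2 and Col1a2 rose by 6.67 and 5.98, and Col1a1 fell by 2.69. The summed level of the 7 was 94.4 to 166 CPM in naive and 86.8 to 106 CPM in EpiLC knockout cells, which overlap, and 38.1 to 75.1 CPM in EpiLC control cells; its part in any result was not tested.

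Genes of epithelial junctions and cadherins mostly rose in the knockout transition, 12 of 16 with 3 lower (median 1.49). Without knockout clone 1, 9 rose, and 9 rose without knockout clone 2. The list is not of epithelial genes alone, and those that rose include Cdh2 (N-cadherin), described above. Esrp1, an epithelial splicing regulator, went from 0.565, 0.446 and 0.584 to 104, 108 and 129 CPM (7.73 ± 0.21, adjusted p = 1.53e-07), and Epcam from 13.5, 5.38 and 23.2 to 315, 149 and 316 CPM (4.35 ± 0.20, adjusted p = 7.97e-07), lowest in clone 2 in both states. Cldn6, Cdh3 and Cdh1 rose by 4.20, 3.50 and 0.66, and the repressors of epithelial genes Zeb1 and Snai1 fell by 2.34 and 1.18. Cldn4, a tight junction claudin, fell from 69.5, 85.2 and 99.3 to 43.3, 38.9 and 46.3 CPM (-0.97 ± 0.15) and was at 0.42 in controls (adjusted p of the difference = 0.0286). Of 11 basement membrane genes 7 fell and 3 rose (median -1.11), with Nid1 (nidogen) down from 982, 1176 and 928 to 26.7, 30.4 and 35.5 CPM (-5.06 ± 0.23, adjusted p = 8.48e-07), Lama1 and Fn1 down by 3.46 and 2.52, and Lamb1 and Col4a1 up by 2.20 and 2.66. Each EpiLC value of Nid1 was a small part of the lowest naive one.

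Cell cycle genes rose modestly. Of 16 S phase genes 12 rose and none fell (median 0.30; 7 rose without knockout clone 2), and of 16 G2 and M phase genes 9 rose and 2 fell (median 0.31). Ccne1 (cyclin E1) went from 71.8, 69.3 and 70.3 to 315, 328 and 346 CPM (2.22 ± 0.08, adjusted p = 3.4e-07), further than in controls (1.59, adjusted p of the difference = 0.0421), Pcna rose by 0.73, Top2a by 0.75 and Cdc20 by 0.78. The 3 clones were within a narrow range in each state. The cyclin-dependent kinase inhibitor Cdkn1a fell from 390.0, 275 and 324 to 147, 106 and 139 CPM (-1.33 ± 0.10, adjusted p = 1.02e-05), without overlap.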

How the data were processed

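Gene counts of 12 libraries were used: 3 clones of each genotype (Pcbp1 knockout and control), each in naive and EpiLC culture. Per the file headers, the deposited counts were made by the authors with featureCounts 2.0.1 and the GENCODE vM25 annotation, with no strand option in the recorded command, so overlapping genes on opposite strands cannot be told apart. Per the submitters' processing notes, fastp, FastQC, STAR, featureCounts and DESeq2 were used with GRCm38 (mm10); other versions are not given in the sources used here. Low counts were removed with filterByExpr over the 4 groups (at least 10 counts per library of median size and 15 in all), leaving 18134 genes.

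The counts as deposited were fitted with edgeR 4.0.16 (R 4.3.3): TMM scaling, quasi-likelihood test, all 12 libraries, a block for each of the 6 clones, 1 EpiLC effect per genotype and their difference as the contrasts, with 4 residual degrees of freedom and Benjamini-Hochberg adjustment over all tested genes. Naive and EpiLC libraries of a genotype with the same replicate number were taken as the same clone, which the labels do not state outright. Their deviations from the group means correlated at 0.277 to 0.397 over 10583 genes. For differently numbered libraries the correlation was 0.126 at most. Deviations from a group mean cancel out within the group, which in itself lowers the correlations between different numbers. Whether the number stands for the clone or for a shared culture run was not tested. No replicates agreed within sampling noise. The labels call the clones independent. The block removes each clone's own level, so p-values measure how the EpiLC minus naive difference varies between clones. That spread is estimated over both genotypes together, so the knockout p-values also depend on the control clones. Genes were named by rule: the 10 largest called rises and falls of the knockout transition, the 8 largest called differences in each direction and those called in opposite directions, with a mean of at least 5 CPM and the same direction in each clone, the largest gains and losses per kilobase, and members of the gene lists; further list members were named after their values were seen. Differences per clone used log2(CPM + 0.5). Both the lists and the members were chosen with earlier results of these data known. Some genes are not reported here. Counting intervals are exact at 95% and cover counting error only.

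On simulated counts of 17643 genes the knockout contrast recovered 98% of genes changed by 1 on the log2 scale and 100% at 2, with 16 false calls, and the difference of transitions 87% and 100%, with 14. In that simulation 100 genes of each size were changed, all well counted and only in EpiLC knockout libraries. Every simulated clone had the same spread. It therefore does not show how either contrast performs at low counts or with a clone that stands apart, as control clone 2 does. Alternatives were DESeq2 1.42.0, its size factors, total counts, other filters, no block, 1 genotype at a time and each clone left out. Promoter windows were taken from RefSeq (GRCm38.p6); 24 of the 27 ATF4 targets matched by symbol. Figures were drawn with matplotlib 3.10.9.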

Additional observations from a re-analysis of the deposited data

Results flagged for a closer look

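The naive to EpiLC change differed between knockout and control clones, by the test of the difference itself (edgeR's quasi-likelihood test with Benjamini-Hochberg adjustment), for 228 genes. Among genes chosen by rule, those with the lower knockout change, as log2 differences (knockout minus control), were Epha7 (-2.885), Rhox5 (-2.634), Prss42 (-2.61), Folh1 (-2.531), Cotl1 (-2.265), Ism2 (-1.95), Dusp1 (-1.916), Vegfa (-1.765), Cldn4 (-1.392), Spry1 (-1.093), Asns (-1.084), Amt (-1.08), Pfkm (-1.038), Slc2a1 (-1.033), Tep1 (-1.029), Prodh (-0.9253), Bcat1 (-0.8312), Asl (-0.6518), Etv5 (-0.5908), Dnmt3a (-0.5833) and Uqcrc1 (-0.5463).

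Those with the higher knockout change were Usp17lb (5.449), Zscan4d (3.917), Amot (3.843), Id2 (3.736), Lbh (3.561), Gata4 (3.548), Dzip1l (3.169), Cdh2 (3.119), Sall3 (3.087), Kdr (3.072), Fjx1 (2.985), Chst15 (2.897), Gata6 (2.751), Lefty1 (2.518), Cdkn1c (2.334), Pmepa1 (2.256), Nol4l (1.405), Ggct (1.245), Gca (1.203), Smad5 (1.009), Btg2 (0.9431), Ccne1 (0.6384) and Hspa5 (0.614). All 44 kept their direction in each alternative in which they were tested. All 44 remained called without control clone 2. None was called without knockout clone 1, since no gene was. Dixon's test for a single outlying library was not run, since it was set for groups of 4 to 10 and each group held 3.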

How the results depend on the processing

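With the clone block, knockout calls numbered 11043, and 10010 without it; control calls 10484 and 9553; differences between transitions 228 and 69, of which 63 were among the 228. Requiring at least 2-fold as well gave 6274 knockout and 5904 control calls and 169 differences. The pairing changed no direction among the named differences. Leaving out 1 clone at a time gave 8959 to 12002 knockout calls, 8305 to 10563 control calls and 0 to 826 differences: 0 without knockout clone 1, 2 without knockout clone 2 or control clone 3, 24 without control clone 1, 137 without knockout clone 3 and 826 without control clone 2. The other settings gave 9532 to 11787 knockout calls. For the differences, 1485 were called with no filter on low counts, 896 by DESeq2's Wald test, 219 with DESeq2's size factors, 219 with total counts and 183 with at least 1 CPM in 3 libraries; the cause was not tested. Of 222 named genes called in the knockout transition, 20 lost the call without some clone: 16 without knockout clone 1 (Asl, Btg2, Etv5, Fos, Hnrnpk, Id1, mt-Cytb, Prss42, Sall3, Cdh1, Gpt2, Phgdh, Trib3, Atf5, Snai1 and Wnt3), 15 without knockout clone 2 (Dkk1, Hsp90aa1, mt-Co1 and Smad3, and 11 of the 16 above), 8 without knockout clone 3, 4 without control clone 3 and 1 without control clone 1. The direction turned for 9 uncalled genes. Over the sets with 1 clone left out, the log2 change ran from -0.13 to 0.05767 for Tcf7l1, -0.1505 to 0.1259 for Tet1, -0.1144 to 0.2188 for Slc7a5, -0.1841 to 0.2852 for Slc3a2, -0.1091 to 0.03202 for Fgf4, -0.03525 to 0.0725 for Smad2, -0.2488 to 0.06102 for Herpud1, -0.5698 to 0.525 for Vldlr and -0.4443 to 0.5809 for Hnf4a. Slc7a5 was at -0.01197 without the block and Smad2 at -0.0167 with no filter. Hnf4a was at 0.02664 with libraries of one genotype, 0.03407 with DESeq2's size factors, 0.02423 with total counts, 0.03286 with at least 1 CPM and 0.05341 by DESeq2. The number of clones, and for endoderm and 2-cell-like genes the low counts, limit the precision.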

Other observations

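Imprinted genes rose in the knockout transition: of 18 tested, 12 were called higher and 3 lower, with a median log2 change of 1.35 (13 higher and 2 lower in the control clones, median 1.21). Cdkn1c, a maternally expressed inhibitor of cyclin-dependent kinases, went from 1.01, 0.418 and 0.707 to 35.6, 26.1 and 15.5 CPM in knockout cells (5.16 ± 0.28), and further than in controls (2.82, adjusted p of the difference by edgeR's quasi-likelihood test = 0.0303). Every EpiLC knockout value was far above the naive ones, and clone 3 was lowest among them. H19, Dlk1 and Mest rose by 6.07, 6.11 and 4.04, and the zinc finger factor Plagl1 fell by 4.42. Of 17 germline genes that promoter methylation silences, 7 rose and 3 fell (median 0.18; -0.03 without knockout clone 1, 0.51 without knockout clone 2 and -0.05 without knockout clone 3). The piRNA pathway genes Tdrd1 and Mael rose by 4.13 and 3.62, and the RNA-binding gene Dazl fell by 2.17.

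Of 18 p53 targets 6 rose and 2 fell (median 0.08; 0.13 without knockout clone 1 and 0.14 without knockout clone 3), a smaller share called than the 60.9% of all genes. Pmaip1 (Noxa) rose by 4.19 and Cdkn1a fell as described. Of 10 genes related to RNA quality and stress 2 rose and 2 fell (median -0.19; 0.09 without knockout clone 2). The nuclear noncoding RNA Neat1 fell by 2.67, and the endoplasmic reticulum chaperone Hspa5 rose from 394, 408 and 525 to 694, 739 and 795 CPM (0.76 ± 0.08; control 0.14, adjusted p of the difference = 0.0453). The knockout states did not overlap for Hspa5.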
